A study of Mus musculus with 12 samples.

Results

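The genes described here are 10 responders to temperature in the mouse liver: the heat shock chaperone genes Hspa1a, Hspa1b, Hspa8, Hsph1, Hsp90aa1, Hsp90ab1, Dnaja1 and Dnajb1, and the cold-inducible RNA-binding protein genes Cirbp and Rbm3. They were chosen by gene symbol as known temperature responders, with earlier results of these data known, and all 10 were found among the 23420 rows of both count tables. Livers were taken at Zeitgeber time (ZT) 10, in the late light phase, from wild type (WT) mice and from mice that lack the ubiquitin ligase SIAH2 (Siah2 KO), with 3 females and 3 males of each genotype. All 12 mice had a C57BL/6 background, were about 20 weeks old and ate normal chow. The KO was a germline loss in every tissue, and WT and KO animals came from related homozygous lines set up after heterozygotes were intercrossed, so line and genotype cannot be told apart. RNA was measured with QuantSeq, which sequences 1 fragment near the 3′ end of each transcript, so levels are not scaled by transcript length. Levels are given as CPM (counts per 1000000) of the normalised library total, and each liver is named by its mouse number.

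Heat shock proteins hold unfolded proteins and help them fold. HSP70 chaperones work with J proteins, which bring clients and start ATP hydrolysis, and with HSP110 proteins, which exchange the nucleotide. Clients can then pass to HSP90. Heat shock factor 1 drives transcription of many of these genes when temperature rises, whereas Cirbp and Rbm3 mRNA accumulate when temperature falls. In mouse liver both sets follow the daily rhythm of body temperature with opposite timing, and for that reason they are set side by side here.

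Promoter sequences are shown because both responses are known to run through short promoter elements. RefSeq promoters (250 bases before to 50 after each start, mouse build GRCm38.p6) were at hand for 6 of the 10 genes, as 11 promoters. They belonged to Hspa1a, Hspa1b, Hsph1, Dnaja1, Dnajb1 and Cirbp. The following stretches of 60 bases lie before the start and are written 5′ to 3′ on the strand of the gene. Capitals mark a pair of inverted heat shock units in the first 3, and the letters of the mild cold response element in Cirbp.
Hspa1b, chr17:34959309-34959368, minus strand: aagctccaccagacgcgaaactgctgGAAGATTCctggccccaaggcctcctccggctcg
Hsph1, chr5:149636337-149636396, minus strand: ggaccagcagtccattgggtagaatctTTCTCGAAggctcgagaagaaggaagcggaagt
Dnaja1, chr4:40722318-40722377, plus strand: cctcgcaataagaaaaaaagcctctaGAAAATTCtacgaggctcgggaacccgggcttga
Cirbp, chr10:80167589-80167648, plus strand: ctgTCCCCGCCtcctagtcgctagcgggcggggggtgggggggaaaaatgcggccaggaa

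The pair of heat shock units was searched as GAANNTTC or TTCNNGAA, where N is any base. It was present in 15.1% of all 32851 promoters of this length and in 5 of the 11 promoters of these genes, those of Hspa1a, Hspa1b, Hsph1 and 1 of the Dnaja1 promoters. In Hspa1a and Hspa1b the pair lay from −104 to −97 relative to the start. A run of 3 units, GAANNTTCNNGAA or TTCNNGAANNTTC, which contains the pair, was in 0.603% of all promoters and among these genes in Hsph1, on both of its promoters. Both Hsph1 promoters held the same sites at shifted positions, and the Hspa1a and Hspa1b promoters are nearly the same. The 5 promoters are therefore not independent. The element TCCCCGCC was searched on both strands, and 5.38% of all promoters held it. It was found from −247 to −240 before 1 of the Cirbp starts, which lies 1849 bases inside the annotated Cirbp gene. The same 8 letters, in reverse complement, were also found in promoters of Hspa1a, Hspa1b, Dnaja1 and Dnajb1, so they did not separate the cold gene from the heat genes. A match is a description of letters and not of binding.

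Read assignment differed in certainty between members. Hspa1a (chr17:34969359-34972156) and Hspa1b (chr17:34956429-34959238) are intronless neighbours that encode nearly the same inducible HSP70, and 99.6% of aligned coding bases were identical. Their promoters differed at 4 of 300 bases. Their annotated 3′ untranslated regions shared no run longer than 24 bases, so a fragment from the end of the transcript could still be assigned. The last 300 bases of the Hspa8 transcript matched 8 places in the reference genome at 95% identity or more over at least 200 bases, whereas those of each other member matched 1 place. The sources used here do not give how reads with several matches were counted, so the Hspa8 level may lack or include reads of copies.

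Depth and labels were examined across the 12 libraries. Library totals ran from 1293688 to 4056144 counts, and all libraries carried the same lane label. Xist was at 66.2 CPM or more in each female and at or below 0.868 CPM in each male, while Ddx3y was at 55.0 CPM or more in each male and at or below 0.722 CPM in each female. Siah2 itself was at 13.6 ± 2.96 CPM in WT females and 10.7 ± 1.57 CPM in KO females (SD, n = 3), and at 21.8 ± 5.18 CPM in WT males and 13.9 ± 4.08 CPM in KO males. Siah2 was not called in either sex, and a 3′ fragment outside the deleted part would not test the deletion. Summed hepatocyte markers (10 of 10 detected) were between 47599 and 71733 CPM in every liver. WT female 1091 stood apart from its group, since the chi-square of its counts, divided by the degrees of freedom, was 47.9 and 51.0 against the other WT females and between 7.45 and 25.1 for all other pairs within a group. Most member and related gene fold changes that rest on WT females are therefore given with and without this mouse. In whole liver, fewer cells of a type and less RNA per cell cannot be told apart.

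**Figure D1:**
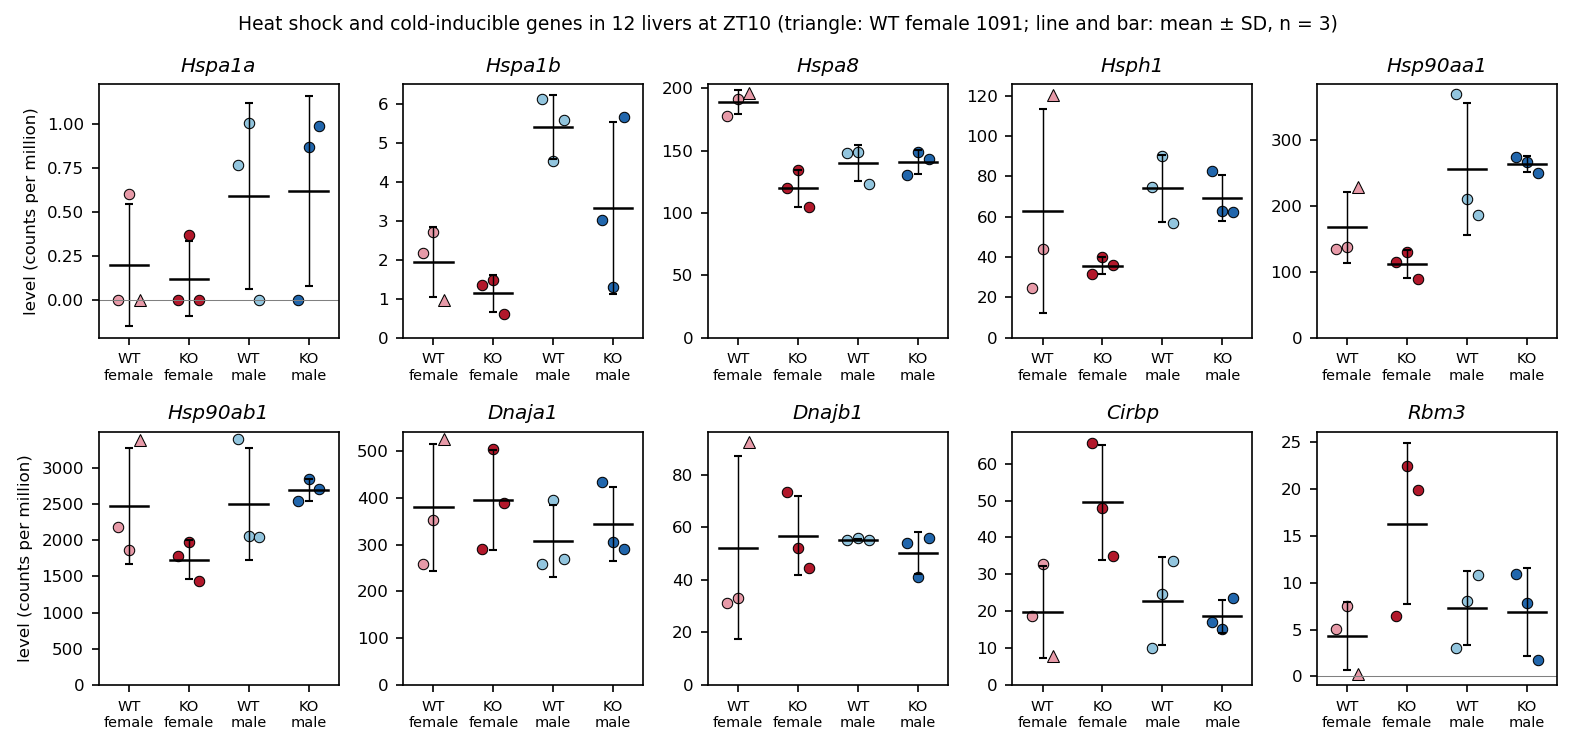
Level of each of the 10 genes in each of 12 livers, in CPM on linear axes, for WT and Siah2 KO females and males. Circles are mice, triangles mark WT female 1091, and the line and bar give the mean and SD of 3 mice. In the WT female group, the triangle is the highest point for Hspa8, Hsph1, Hsp90aa1, Hsp90ab1, Dnaja1 and Dnajb1 and the lowest for Hspa1b, Cirbp and Rbm3.

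Over the 12 livers the members differed widely in level. Hsp90ab1 was the most abundant, at 2347 CPM on average, followed by Dnaja1 at 356 CPM, Hsp90aa1 at 199.9 CPM and Hspa8 at 147 CPM. Hsph1 averaged 60.4 CPM, Dnajb1 53.7 CPM, Cirbp 27.7 CPM and Rbm3 8.67 CPM. The inducible HSP70 genes were close to silent, with 2.95 CPM for Hspa1b and 0.383 CPM for Hspa1a. Hspa8 varied least between livers, with a coefficient of variation of 19.3%, against 60.2% for Cirbp and 77.3% for Rbm3.

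In females the genotype comparison asked whether loss of SIAH2 moved these genes at ZT10. Hspa8 was lower in Siah2 KO females and Cirbp was higher, each without overlap between the groups, but no member passed an adjusted p of 0.05. The quasi-likelihood F test of edgeR, adjusted by Benjamini-Hochberg over all genes tested, called 0 of 9465 genes (0%) and 0 of 8 members tested. At an unadjusted p under 0.05 there were 1478 genes (15.6%) and 3 members, Hspa8, Cirbp and Rbm3. By DESeq2, 308 genes (3.68% of the 8364 to which it gave an adjusted p) and no member were called. Groups did not overlap for 23.3% of genes tested and for 3 of the 8 members, Hspa8, Hsp90aa1 and Cirbp. The median log2 fold change of the members was −0.24, against −0.03 for all genes tested.

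Hspa8 encodes HSC70, the constitutive cytosolic HSP70. WT females 1089, 1090 and 1091 had 178, 192 and 197 CPM, and KO females 1070, 1104 and 1105 had 120.4, 134 and 105 CPM. Every KO female was thus below every WT female. The means were 188.7 ± 9.64 CPM and 119.9 ± 14.8 CPM (SD, n = 3), a log2 fold change of −0.67 ± 0.21 (SE, 95% interval −1.14 to −0.19, edgeR adjusted p = 0.184). Without WT female 1091 the log2 fold change was −0.62 with an edgeR adjusted p of 0.0515, and DESeq2 without that mouse called it (adjusted p = 0.0425). It was also called when the males entered the same edgeR fit (adjusted p = 0.0474) and by limma-voom with weights for library quality (adjusted p = 0.0385). These fits called 427 and 1058 genes in all. Leaving out each female in turn kept its log2 fold change between −0.76 and −0.59 in edgeR, at adjusted p of 0.0515 to 0.454.

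Hspa1a and Hspa1b did not pass the filter on low counts in the fit of the 6 females. Hspa1b had 3 to 9 reads in each WT female and 1 to 5 in each KO female, or 1.94 ± 0.894 and 1.14 ± 0.472 CPM (SD, n = 3). Its log2 fold change was −0.66 in the fit of all 12 mice (edgeR adjusted p = 0.651) and −0.67 with no filter (adjusted p = 0.776). Hspa1a had 12 reads in all 12 libraries together and 0 reads in 6 of them, which allows up to 0.812 to 1.81 CPM in those libraries at 3 reads each. Both genes, which are strongly induced by heat, stayed at or below 6.12 CPM in every liver of either sex.

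Hsph1 encodes the HSP110 partner of HSP70. Levels were 24.5, 43.8 and 120.1 CPM in WT females 1089, 1090 and 1091, and 31.4, 39.8 and 36.1 CPM in KO females 1070, 1104 and 1105. The KO values lay inside the range of the WT values, and WT female 1091 alone was above all of them by a wide margin. The log2 fold change of −0.83 ± 0.48 (SE, edgeR adjusted p = 0.449) turned to 0.05 without that mouse (adjusted p = 0.926).

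The HSP90 genes were lower on average in KO females. Hsp90aa1, which encodes the inducible HSP90 alpha, was at 135, 138 and 229.6 CPM in WT females 1089, 1090 and 1091 and at 115.8, 130.4 and 89.1 CPM in KO females 1070, 1104 and 1105. These groups did not overlap, but the highest KO and lowest WT female were close. Its log2 fold change was −0.60 ± 0.28 (SE, edgeR adjusted p = 0.338), and it was −0.28 without WT female 1091 (adjusted p = 0.398). Hsp90ab1, the constitutive HSP90 beta, was at 2178, 1860.3 and 3375 CPM in the same WT females and at 1776, 1967 and 1436 CPM in the KO females. These groups overlapped, since KO female 1104 was above WT female 1090. Its log2 fold change was −0.53 ± 0.29 (SE, edgeR adjusted p = 0.427), and −0.23 without WT female 1091 (adjusted p = 0.504).

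Neither J protein gene was called. Dnaja1, a farnesylated J protein that works with HSC70, was at 379 ± 135 CPM in WT and 395 ± 107 CPM in KO females (SD, n = 3), a log2 fold change of 0.04 ± 0.31 (SE, edgeR adjusted p = 0.968), and 0.37 without WT female 1091 (adjusted p = 0.378). Dnajb1, the HSP40 that is itself induced by heat, was at 31.4, 33.0 and 92.7 CPM in WT females 1089, 1090 and 1091 and at 73.6, 52.3 and 44.5 CPM in KO females 1070, 1104 and 1105. Here WT females 1089 and 1090 lay below every KO female and 1091 above. The log2 fold change was 0.11 ± 0.41 (SE, edgeR adjusted p = 0.932). Without WT female 1091 it was 0.83 (edgeR adjusted p = 0.0506, DESeq2 adjusted p = 0.0441).

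Cirbp encodes an RNA-binding protein that cold induces and that is known to act on poly(A) site choice of circadian transcripts. Its levels were 18.8, 32.7 and 7.96 CPM in WT females 1089, 1090 and 1091 and 65.8, 47.9 and 34.9 CPM in KO females 1070, 1104 and 1105. All KO females were above all WT females, with WT female 1090 and KO female 1105 closest to each other. The means were 19.8 ± 12.4 and 49.5 ± 15.5 CPM (SD, n = 3), a log2 fold change of 1.31 ± 0.44 (SE, 95% interval 0.33 to 2.30, edgeR adjusted p = 0.199). DESeq2 gave an adjusted p of 0.0795. Without WT female 1091 the log2 fold change was 0.96 (edgeR adjusted p = 0.0701, DESeq2 adjusted p = 0.0474), and it stayed between 0.96 and 1.89 when each female was left out in turn. The edgeR adjusted p in these fits ran from 0.0701 to 0.488. The call was made by limma-voom with quality weights (adjusted p = 0.0325) and by edgeR with no filter on low counts (adjusted p = 0.00262). These settings called 1058 and 484 genes in all, against 0 in the main fit.

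Rbm3, a close relative of Cirbp with the same kind of RNA-binding domain, was at 5.05, 7.50 and 0.319 CPM in WT females 1089, 1090 and 1091 and at 6.49, 22.5 and 19.9 CPM in KO females 1070, 1104 and 1105. KO females 1104 and 1105 exceeded every WT female, whereas KO female 1070 lay within the WT range. The value of WT female 1091 was a single read, with an exact Poisson 95% interval of 0.00806 to 1.77 CPM that covers counting error only. The log2 fold change was 1.87 ± 0.72 (SE, edgeR adjusted p = 0.243), and 1.303 without that mouse (adjusted p = 0.126). Only the edgeR fit with no filter on low counts, which called 484 genes in all, called it among the settings run (adjusted p = 0.00115).

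**Figure D2:**
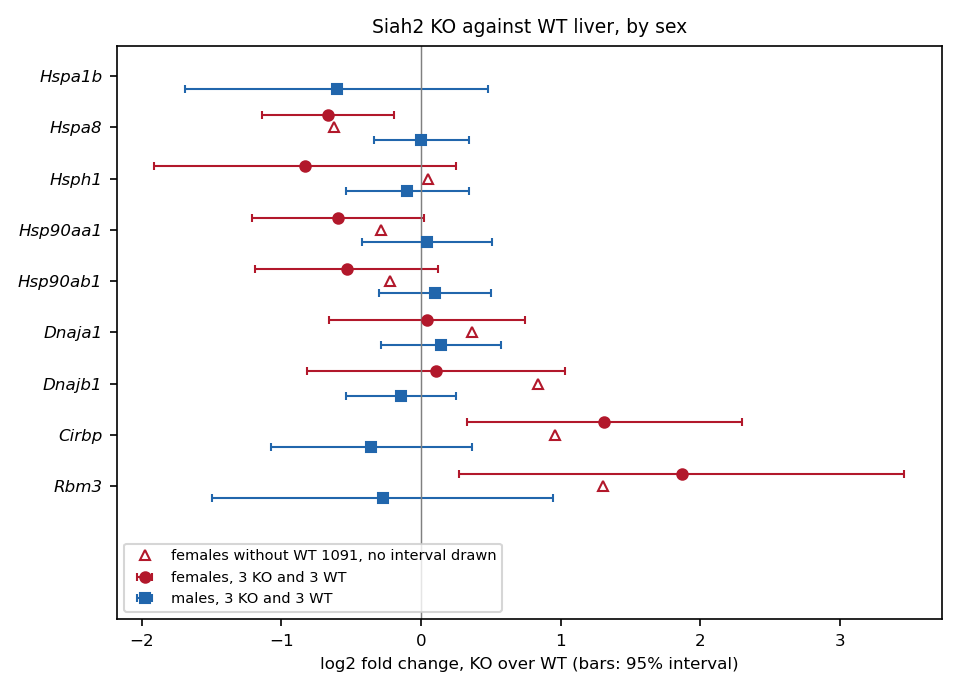
Log2 fold change of 9 members in Siah2 KO over WT liver (x axis), in females (red circles) and males (blue squares), with 95% intervals from edgeR. Open triangles give the females without WT female 1091. Hspa1b is drawn for males only, because it did not pass the filter on low counts in the female fit. In females Hspa8 lies below 0 and Cirbp and Rbm3 above 0 with intervals that leave out 0, at unadjusted p only, and the triangle of Hsph1 lies on the other side of 0 from its circle.

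In males no member was called between genotypes under any setting run. edgeR called 0 of 8823 genes (0%) and 0 of 9 members, and 357 genes (4.05%) but no member had an unadjusted p under 0.05. By DESeq2, 5 genes (0.0567%) and no member were called, and the groups overlapped for all 9 members, against 8.87% of genes whose groups did not overlap. Hspa8 was at 140.1 ± 14.7 CPM in WT and 140.9 ± 9.61 CPM in KO males (SD, n = 3), a log2 fold change of 0.00 with a 95% interval from −0.34 to 0.34. Cirbp was at 9.94, 24.6 and 33.7 CPM in WT males 1055, 1086 and 1087 and at 17.0, 15.2 and 23.7 CPM in KO males 1075, 1076 and 1081. The KO values lay inside the WT range, and the log2 fold change was −0.36 ± 0.34 (SE, edgeR adjusted p = 0.9999). Rbm3 was at 3.06, 8.04 and 10.8 CPM in the WT males and 10.9, 7.81 and 1.73 CPM in the KO males, again with wide overlap.

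The HSP90 genes of males were nearly level on average and unequal in spread. Hsp90ab1 was at 3396, 2054 and 2048 CPM in WT males 1055, 1086 and 1087 and at 2542, 2837 and 2698 CPM in KO males 1075, 1076 and 1081. Hsp90aa1 was at 371, 212 and 186 CPM in the WT males and at 274, 267 and 250.4 CPM in the KO males. For both genes WT male 1055, the library with the lowest total, was above all KO males and the other WT males were below them. Their log2 fold changes of 0.10 and 0.04 became 0.39 and 0.41 without WT male 1055, where edgeR gave an adjusted p of 0.903 for each. The 9 log2 fold changes in males lay between −0.60 for Hspa1b and 0.15 for Dnaja1.

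The difference of the genotype effect between the sexes was tested in 1 edgeR fit of all 12 mice. It was called for 25 of 9806 genes (0.255%) and for 0 of 9 members. At an unadjusted p under 0.05 there were 1382 genes (14.1%) and 2 members. These were Hspa8, with a difference of −0.66 ± 0.25 on the log2 scale (SE, edgeR adjusted p = 0.228), and Cirbp, with 1.66 ± 0.62 (SE, edgeR adjusted p = 0.223). Rbm3 followed with 2.13 ± 1.02 (SE, edgeR adjusted p = 0.367). DESeq2 called 261 genes (3.15% of the 8285 with an adjusted p) and no member. Without WT female 1091 edgeR called 522 genes (5.15%) and still no member, with −0.62 for Hspa8, 1.31 for Cirbp and 1.62 for Rbm3 at adjusted p of 0.129, 0.143 and 0.306, so a sex difference in the response of these genes was not shown. The fit with no filter on low counts called 325 genes, among them Cirbp and Rbm3, at adjusted p of 0.00818 and 0.0250. For the KO against WT contrast in females, the fit without WT female 1091 called 936 genes (9.64%) and none of the members.

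Between the sexes, the question was how far the liver levels of these genes are dimorphic, first in WT mice. No member was called between WT females and WT males. Hspa8 was higher in WT females and Hspa1b was lower, each without overlap, which was about as frequent among all genes. edgeR called 505 of 9806 genes (5.15%) and DESeq2 750 (7.65%), with 0 of 9 members in both. At an unadjusted p under 0.05 there were 1966 genes (20%) and 3 members, Hspa1b, Hspa8 and Hsp90aa1. The groups did not overlap for 22.5% of genes and for 2 of 9 members, a similar share. Hspa8 was at 188.7 CPM on average in females and 140.1 CPM in males, a log2 fold change of 0.43 ± 0.18 (SE, edgeR adjusted p = 0.177), and 0.40 without WT female 1091 (adjusted p = 0.1499). Hspa1b had 2.17, 2.70 and 0.956 CPM in WT females 1089, 1090 and 1091 and 6.12, 4.52 and 5.57 CPM in WT males 1055, 1086 and 1087. With 3 to 18 reads a library, its log2 fold change was −1.45 ± 0.57 (SE, edgeR adjusted p = 0.166), and −1.12 without WT female 1091 (adjusted p = 0.281).

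WT female 1091 decided the calls for several heat shock genes in the WT sex comparison. Without it, edgeR called 1043 genes (10.3%) and 3 members, all lower in females. These were Hsph1 with a log2 fold change of −1.10 (edgeR adjusted p = 0.0126, DESeq2 0.00202), Hsp90aa1 with −0.90 (0.0285 and 0.00606) and Dnajb1 with −0.78 (0.0377 and 0.0286). With it, their log2 fold changes were −0.23, −0.61 and −0.08, at edgeR adjusted p of 0.812, 0.221 and 0.929. Hsph1, for example, was at 24.5 and 43.8 CPM in WT females 1089 and 1090, below the 74.9, 90.0 and 56.9 CPM of WT males 1055, 1086 and 1087, and at 120.1 CPM in WT female 1091, above them.

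In Siah2 KO mice Hsp90aa1 was lower in females than in males, the only member called by the chosen test. KO females 1070, 1104 and 1105 had 115.8, 130.4 and 89.1 CPM, and KO males 1075, 1076 and 1081 had 274, 267 and 250.4 CPM. The groups were far apart, with 112 ± 20.9 against 264 ± 12.2 CPM (SD, n = 3). The log2 fold change was −1.24 ± 0.27 (SE, 95% interval −1.82 to −0.65, edgeR adjusted p = 0.0193, DESeq2 adjusted p = 0.00151). Leaving out each of the 6 KO mice in turn kept it between −1.35 and −1.10, but the edgeR adjusted p was then between 0.0619 and 0.0827, so the call needed all 3 mice of both groups. The effect of sex in WT mice was −0.61, and −0.90 without WT female 1091. The test of the difference between genotypes is the one given above (log2 difference −0.63 ± 0.38 SE, edgeR adjusted p = 0.504). With each mouse left out in turn, WT female 1091 included, that difference lay between −0.98 and −0.32, at edgeR adjusted p of 0.227 to 0.758. The sex difference was thus not shown to depend on genotype.

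Of all genes, edgeR called 352 (3.59%) in this comparison and DESeq2 540 (5.51%), the latter with 2 members, Hsp90aa1 and Cirbp. At an unadjusted p under 0.05 there were 1790 genes (18.3%) and 5 members, and the groups did not overlap for 29.8% of genes and 4 members. Cirbp was higher in KO females, at 49.5 ± 15.5 against 18.6 ± 4.47 CPM in KO males (SD, n = 3), with a log2 fold change of 1.41 ± 0.43 (SE, edgeR adjusted p = 0.0869, DESeq2 adjusted p = 0.0387). Hsph1 had a log2 fold change of −0.96 ± 0.41 (SE, edgeR adjusted p = 0.217) and Hsp90ab1 of −0.64 ± 0.26 (SE, adjusted p = 0.191), both lower in KO females without overlap. When only the 6 KO mice were fitted, edgeR called Hsph1, Hsp90aa1, Hsp90ab1 and Cirbp, at adjusted p of 0.00474, 0.000217, 0.0219 and 0.00204. That setting also called far more genes in all than the 352 of the main fit, and its total is given with the other settings below. The further member calls thus came with a general rise in calls. Females and males were counted in separate tables, and any difference in how the tables were made cannot be told apart from sex.

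**Figure D3:**
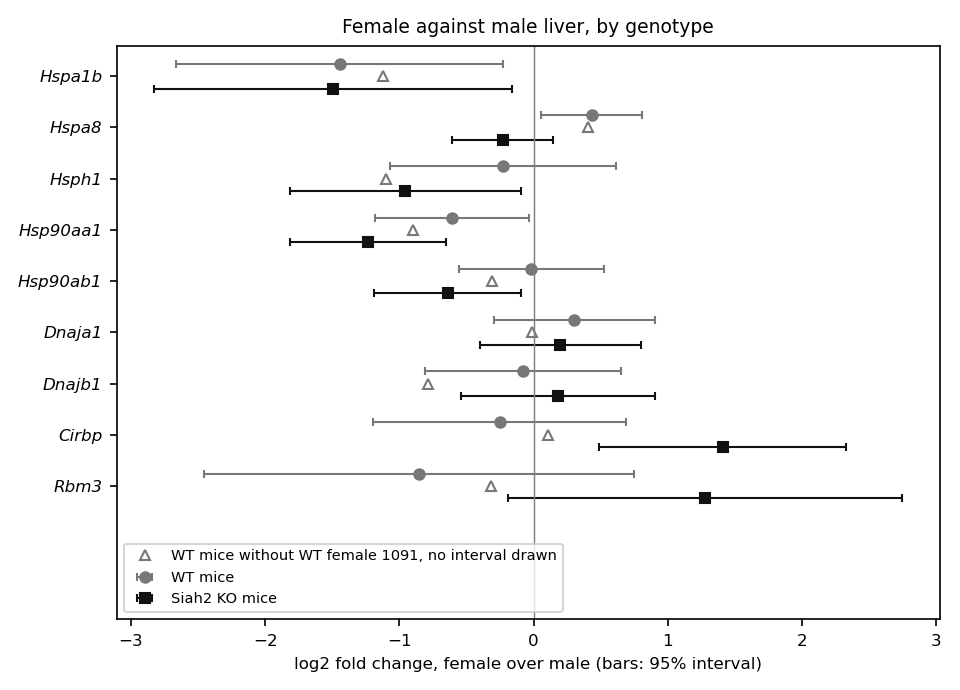
Log2 fold change of 9 members in female over male liver (x axis) in WT mice (grey circles) and Siah2 KO mice (black squares), with 95% intervals from edgeR; open triangles give the WT mice without WT female 1091. Hsp90aa1 lies below 0 in both genotypes, and the triangles of Hsph1, Hsp90aa1 and Dnajb1 lie further below 0 than their circles.

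Group order differed from gene to gene. For Cirbp and Rbm3 the KO females were highest on average, at 49.5 and 16.3 CPM, and the other three groups lay between 18.6 and 22.8 CPM for Cirbp and between 4.29 and 7.31 CPM for Rbm3, within their own spread. For Hsp90ab1, Hsp90aa1, Hsph1 and Hspa8 the KO females were lowest on average, whereas for Dnaja1, at 395 CPM, and Dnajb1, at 56.8 CPM, they were highest, by less than the SD of either female group. For Hsp90ab1 the other groups followed each other from 2471 CPM in WT females through 2499 CPM in WT males to 2692 CPM in KO males, steps smaller than the SD of either WT group. Hspa8 was highest in WT females, and the male groups at 140.1 and 140.9 CPM did not differ beyond their spread.

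The ratio of the cold genes to the heat shock genes varied from liver to liver. The summed level of Cirbp and Rbm3, divided by that of the 8 heat shock genes, was 0.182% in WT female 1091 and 0.302% in WT male 1055. It was between 0.627% and 1.62% in the other male and WT female livers, and between 2.48% and 3.00% in the KO females. Every KO female was thus above each of the other 9 livers on this ratio. Cirbp alone already placed them so, at 34.9 CPM or more against 33.7 CPM or less, so the ratio is no separate support. Hsp90ab1 made up most of the heat sum, so the ratio mainly sets Cirbp and Rbm3 against that gene.

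**Figure D4:**
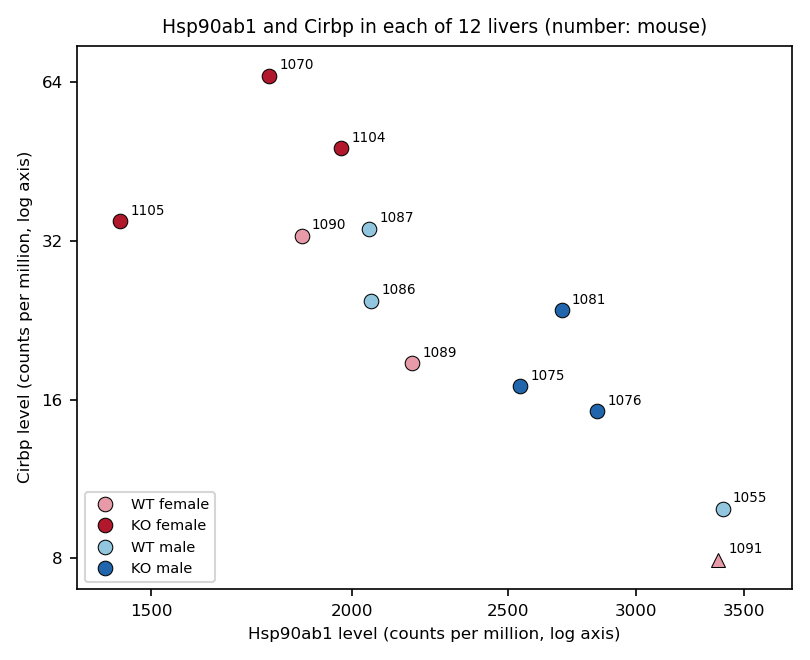
Level of Cirbp (y axis) against Hsp90ab1 (x axis) in each of 12 livers, in CPM on log axes, with the mouse number beside each point. WT female 1091 and WT male 1055 share the lower right corner, at 3375 and 3396 CPM of Hsp90ab1 and 7.96 and 9.94 CPM of Cirbp. The KO females lie at the left with 34.9 to 65.8 CPM of Cirbp. WT female 1090 lies among them on the x axis, at 1860 CPM of Hsp90ab1, with 32.7 CPM of Cirbp.

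Over the 12 mice, the log2 levels of Hsp90ab1 and Cirbp were related with r = −0.86 (Pearson) and rho = −0.92 (Spearman), given as a description with no test. It was the most negative r among the pairs of members, so it is a selected extreme. How many other genes were as strongly related to either gene was not examined. All points share the normalisation of their library. The r was −0.81 without WT female 1091, −0.77 after group means were removed, −0.82 within females and −0.90 within males. Hsp90aa1 and Hsp90ab1 were the most alike pair of members, with r = 0.89 and 0.95 after group means were removed. Hsph1 was like Hsp90aa1 (r = 0.77, 0.59 after group means were removed, but 0.25 within males), while Dnaja1 followed neither HSP90 gene (r = −0.13 and −0.04). Hspa8 had an r of 0.50 with Hsp90ab1 and −0.55 with Cirbp, which were 0.55 and −0.20 after group means were removed. Hsp90aa1 and Hsph1 also had negative relations with Cirbp, with r of −0.75 and −0.66. Dnaja1, Dnajb1 and Hspa1b had weak relations with Cirbp, with r of −0.05, −0.13 and −0.15. Rbm3 had an r of −0.73 with Hsp90ab1, −0.63 with Hspa8 and −0.51 with Hsp90aa1. After group means were removed these were −0.70, −0.31 and −0.60. With Dnaja1 its r was 0.11, and 0.72 without WT female 1091. Cirbp and Rbm3 had an r of 0.65, which was 0.47 without WT female 1091 and 0.44 after group means were removed.

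Among the 4891 genes that averaged 20 CPM or more, the genes most like Hsp90ab1 over the 12 mice were Erp29 (r = 0.94), Cant1 (0.93) and Hyi (0.92). Those most like Cirbp were Perp (0.93), Ctsl (0.92) and Cdo1 (0.92). Those most like Hspa8 were Chchd10 (0.93), Akr7a5 (0.92) and Rpl7 (0.92). After group means were removed, the r of Erp29 was 0.93 and that of Perp 0.88, whereas that of Chchd10 was 0.57.

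Related genes were taken from lists of chaperones, splicing factors and immediate early genes, and each list is given by its counts. Of the heat shock factors, Hsf1 averaged 1.67 CPM and was not tested. Hsf2, at 30.6 CPM, differed between KO and WT by −0.32 on the log2 scale in females, with all mice only, and by −0.12 in males. With all mice, no gene of any list was called by edgeR for KO against WT in either sex or for the difference. In females the smallest p values belonged to Pdia3, an endoplasmic reticulum (ER) disulfide isomerase, Stip1, which hands clients from HSP70 to HSP90, and the prefoldin subunit Pfdn2. Stip1 was at 40.8, 33.9 and 42.4 CPM in WT females 1089, 1090 and 1091 and at 17.3, 20.3 and 16.3 CPM in KO females 1070, 1104 and 1105. All KO females were well below all WT females, 1091 included. Its log2 fold change was −1.13 ± 0.24 (SE, edgeR adjusted p = 0.0962, DESeq2 adjusted p = 0.0220). Pdia3 had −1.24 ± 0.25 (SE, edgeR adjusted p = 0.0962, DESeq2 0.00369) and Pfdn2 0.92 ± 0.23 (SE, edgeR 0.119, DESeq2 0.0293). Without WT female 1091 edgeR called all 3, at −1.05 for Stip1, −1.37 for Pdia3 and 0.83 for Pfdn2, with adjusted p of 0.0160, 0.00377 and 0.0266.

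By list, the co-chaperones of HSP70 and HSP90 had 1 of 18 tested genes higher and 2 lower at an unadjusted p under 0.05 in females. A further list of J proteins had 0 and 1 of 14. The mitochondrial chaperones had 4 of 10 higher and 2 lower, and the ER chaperones 2 of 14 higher and 3 lower. TRiC and prefoldin had 1 of 13 higher and 2 lower, and the temperature-dependent splicing genes 1 of 10 higher and 0 lower. The small heat shock proteins had 0 of 4 higher and 1 lower, the immediate early genes 0 of 10 and 1, the other HSP70 and HSP110 genes 0 of 4 and 0, and the heat shock factors 0 of 2 and 0. Over all genes, 7.30% were higher and 8.31% lower at that threshold.

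In males the smallest p values belonged to the immediate early genes Klf6 and Ier2 and to the J protein gene Dnajb4, each lower in KO. Klf6 went from 111.7 ± 19.3 to 66.5 ± 0.962 CPM (SD, n = 3), a log2 fold change of −0.77 ± 0.17 (SE, edgeR adjusted p = 0.555). Ier2 had −0.86 ± 0.25 and Dnajb4 −0.74 ± 0.23 (SE), both at an edgeR adjusted p of 0.9999. For the difference between the sexes they belonged to Klf6 (1.32 ± 0.31), Dnajc7 (−1.93 ± 0.52) and Pdia3 (−1.35 ± 0.37, SE), at edgeR adjusted p of 0.0829, 0.109 and 0.109. They were 1.53, −2.23 and −1.49 without WT female 1091, and edgeR then called all 3, at adjusted p of 0.00610, 0.00587 and 0.0196.

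Called differences between the sexes were found in other chaperone families. In KO mice, where 3.59% of all genes were called, 4 of 14 ER chaperones were called, each lower in females: Calr, Hspa5, Pdia3 and Hyou1. Hspa5, the ER HSP70 known as BiP, was at 999.6 ± 108 CPM in KO females and 2362 ± 669 CPM in KO males (SD, n = 3), a log2 fold change of −1.24 ± 0.26 (SE, edgeR adjusted p = 0.0137). The lectin chaperone Calr had −1.004 ± 0.20 and the ER HSP110 Hyou1 −1.39 ± 0.33 (SE), at edgeR adjusted p of 0.00821 and 0.0293. The mitochondrial chaperonin pair went the other way. Hspe1 (HSP10) was at 1238 ± 301 CPM in KO females and 507 ± 90.7 CPM in KO males (SD, n = 3), with a log2 fold change of 1.29 ± 0.27 (SE, edgeR adjusted p = 0.0124), and Hspd1 (HSP60) had 0.84 ± 0.20 (SE, adjusted p = 0.0295). The J protein gene Dnajc8, named after its values were seen, was called too, with 0.86 ± 0.21 (SE, edgeR adjusted p = 0.0297).

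In WT mice the genes called by edgeR included an ER chaperone, 2 prefoldin subunits, a splicing gene and a cytosolic J protein. Lower in females were the ER J protein gene Dnajb11 (log2 fold change −1.14, adjusted p = 0.00386), Pfdn2 (−0.94, 0.0121) and Srsf2 (−0.74, 0.0371). Higher in females were Pfdn1 (1.06, 0.0184) and Dnajc7 (1.37, 0.0407). Each stayed called on the same side without WT female 1091, at −1.10, −0.84, −0.65, 1.08 and 1.69 in this order, with edgeR adjusted p of 0.00235, 0.0103, 0.0292, 0.00872 and 0.00115.

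Some markers of other cells differed between the sexes. Red blood cell markers (6 of 8 in the tables, 4 of them at 0 in every liver) summed to 8.47 to 25.5 CPM in females and 84.4 to 154 CPM in males. Kupffer and other immune markers (11 of 12) summed to 388 to 922 CPM in females and 93.1 to 663 CPM in males, with overlap, since WT male 1086 was above every WT female. Endothelial sums did not overlap between the sexes, at 352 to 374 against 255 to 321 CPM in WT mice and 314 to 339.5 against 266 to 279 CPM in KO mice. Hepatocyte sums were higher in WT females, at 65679 to 71733 CPM, than in WT males, at 52358 to 61294 CPM, and overlapped in KO mice. The part of these markers in the sex differences of Hsp90aa1 and Cirbp was not tested. Within females the red blood cell sums were 20.7 to 25.5 CPM in WT and 8.47 to 20.5 CPM in KO. Endothelial markers (7 of 7) also separated the female groups, at 352 to 374 CPM in WT and 314 to 339.5 CPM in KO. The part of both in the levels of Hspa8 and Cirbp was not tested either.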

How the data were processed

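RNA of 12 mouse livers was measured by QuantSeq 3′ mRNA sequencing. The labels describe RNA pooled from 3 mice, whereas the study's methods describe individual livers for this experiment, and 1 mouse a library was assumed. The deposited values are raw counts per gene symbol, in 1 table for females and 1 for males, made by the authors on Illumina BaseSpace. The submitters' processing notes name STAR, DESeq and mm10; versions and the treatment of reads with several matches were not given in these sources. The tables' means, fold changes and p-values of the authors' own comparisons were not used. Of the gene symbols 25 had turned into dates, and none was a member.

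Genes were kept by edgeR's filterByExpr, scaled by TMM and tested with glmQLFTest (edgeR 4.0.16, R 4.3.3), two-sided, at an adjusted p of 0.05. KO against WT was fitted within each sex on 6 mice; the difference between the sexes and the sex comparisons came from 1 fit of 12 mice. CPM used the TMM-scaled totals of the kept genes. DESeq2 1.42.0, limma-voom (limma 3.58.1) without and with quality weights, RLE scaling, other filters, other sets of mice and leaving out each mouse were alternatives, and DESeq2 without WT female 1091 was added after the data were seen. The steps were tested on simulated counts. Sequence searches used Biopython 1.88 and BLAST+ 2.17.0, the latter against NCBIM37 with GENCODE M1 transcripts. Gene positions and promoters are RefSeq's, on GRCm38.p6.

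The 10 members and all lists were chosen with earlier results of these data known. All members are named. From the related lists a gene is named where edgeR called it, and otherwise the 3 genes with the smallest p and a mean of at least 10 CPM, at most 6 a comparison. The heat shock factors Hsf1 and Hsf2 and the J protein gene Dnajc8 are named outside this rule. A gene that this rule names is not reported here. The genes most alike are the 3 with the highest Pearson r of log2 CPM (prior count 3). Beyond mouse numbers nothing describes separate cultures or cages, so p-values measure the spread between these mice. Libraries held 1293688 to 4056144 counts, and intervals on single counts cover counting error only.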

Additional observations from a re-analysis of the deposited data

How the results depend on the processing

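Depth limited Hspa1a and Hspa1b most, which had 12 and 97 reads over all libraries. Scaling by RLE changed no call of a member. Of the 315 member fold changes recomputed without leaving out a mouse by edgeR, 278 kept direction and side of the threshold, 25 passed it newly and 12 turned direction. The cause of each change was not tested, and none of the turned values was called.

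For KO against WT in females (0 genes, 0 members called), DESeq2 called 308 genes, quality weights 1058 genes and 2 members (Hspa8, Cirbp), no filter on low counts 484 genes and 2 members (Cirbp, Rbm3), a fit of all 12 mice 427 genes and 1 member (Hspa8), and DESeq2 without WT female 1091, chosen after seeing the data, 882 genes and 3 members (Hspa8, Dnajb1, Cirbp). In males (0 genes), DESeq2 called 5 genes and no filter 29. For the difference (25 genes, 0 members), DESeq2 called 261 genes, quality weights 558, no filter 325 genes and 2 members (Cirbp, Rbm3), and DESeq2 without WT female 1091 633 genes. For WT sex (505 genes, 0 members), quality weights called 1130 genes and 2 members (Hsph1, Hsp90aa1), no filter 802 genes, a fit of the 6 WT mice 130, and DESeq2 without WT female 1091 1077 genes and 3 members (Hsph1, Hsp90aa1, Dnajb1). For KO sex (352 genes, 1 member), DESeq2 called 540 genes and 2 members (Hsp90aa1, Cirbp), quality weights 1186 genes and 4 members (Hsph1, Hsp90aa1, Hsp90ab1, Cirbp), no filter 664 genes and 4 members (Hsph1, Hsp90aa1, Cirbp, Rbm3), and a fit of the 6 KO mice 1044 genes and 4 members.

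With each mouse left out in turn, edgeR called 0 to 936 genes in females (936 without WT female 1091), 0 to 3 in males (3 without WT male 1086), 0 to 522 for the difference (522 without WT female 1091), 201 to 1043 for WT sex with 0 to 3 members (1043 and 3 without WT female 1091, 201 without WT male 1087), and 150 to 274 for KO sex with 0 members each time.

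Some log2 fold changes turned direction. In females Hsph1 (−0.83) was 0.045 with quality weights and 0.058 by DESeq2 without WT female 1091. For the difference, Hspa1b (−0.05) was 0.18 by limma-voom, Hsph1 (−0.73) was 0.12 and 0.15, and Dnaja1 (−0.10) was 0.19 and 0.22, with quality weights and by DESeq2 without WT female 1091. For WT sex, Hsp90ab1 (−0.02) was 0.020 with no filter, 0.0095 with at least 10 counts in every library and 0.027 with the 6 WT mice, and DESeq2 without WT female 1091 gave −0.017 for Dnaja1 (0.30) and 0.13 for Cirbp (−0.25).

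Leaving out each mouse gave these ranges where a direction turned. In females they were −1.22 to 0.051 for Hsph1, −0.17 to 0.37 for Dnaja1 and −0.16 to 0.83 for Dnajb1. In males they were −0.078 to 0.074 for Hspa8, −0.26 to 0.10 for Hsph1, −0.13 to 0.41 for Hsp90aa1, −0.015 to 0.39 for Hsp90ab1, −0.040 to 0.39 for Dnaja1, −0.64 to 0.062 for Cirbp and −0.82 to 0.26 for Rbm3. For the difference they were −0.38 to 0.61 for Hspa1b, −1.11 to 0.15 for Hsph1, −0.37 to 0.22 for Dnaja1 and −0.050 to 0.98 for Dnajb1. For WT sex they were −1.10 to 0.15 for Hsph1, −0.31 to 0.26 for Hsp90ab1, −0.011 to 0.57 for Dnaja1, −0.78 to 0.24 for Dnajb1 and −0.81 to 0.17 for Cirbp. For KO sex they were −0.015 to 0.39 for Dnaja1 and −0.059 to 0.32 for Dnajb1. No paired analysis was possible because no mouse number occurs in more than 1 group.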
